A study of Komagataella phaffii GS115 with 3 samples.

Results

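This account covers 65 of the 5040 genes measured in Komagataella phaffii, a methylotrophic yeast long called Pichia pastoris, namely those whose transcripts were at least 4-fold lower both after hydrogen peroxide (H2O2) treatment and in an hmt-deficient strain. A gene was taken when its highest level in any library reached 10 FPKM (fragments counted on a gene, divided by its length and by the library's size) and when log2 of the ratio to the untreated library, with 1 added to each FPKM value, was -2 or less in both comparisons. The thresholds were met by 66 genes, of which 1 was left out when the set was drawn up. The genes were therefore chosen from these values, so their lower levels than untreated are given as a description and support nothing.

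The study held 3 RNA-seq libraries, 1 for each group: the GS115 strain treated with H2O2, an hmt-deficient derivative of GS115 in regular culture, and GS115 in regular culture without treatment. All groups share the GS115 background, a histidine auxotroph used as an expression host. The dose and duration of H2O2, the culture medium, the gene meant by hmt, how it was lost and how many clones were grown are not stated in the sources used here. With 1 library a group, none of the differences could be checked against replicates, and no p-value was computed.

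Hydrogen peroxide is an oxidant to which yeasts respond by raising antioxidant enzymes, under transcription factors such as Yap1, while many transcripts of growth and biosynthesis fall, as is known from Saccharomyces cerevisiae. In methylotrophic yeasts peroxide also arises inside the cell, because alcohol oxidase makes it in peroxisomes as methanol is burned. The tables used pair none of the 65 locus tags with a gene name or product, so the members are described by level, length and place and no role is given. FPKM is a share of each library: less transcript per cell cannot be told apart from more of other transcripts. Counting error rests on fragments recovered from the values, with fitted totals of about 22400000 for the H2O2-treated, 18300000 for the hmt-deficient and 15400000 for the untreated library.

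The median rank of the members by level was 4153 of 5040 genes after H2O2 and 3104 in hmt-deficient cells, against 461 in untreated GS115, where most of them were among the more abundant transcripts. Together the members, 1.29% of all genes, made up 0.299% of the summed FPKM of the H2O2-treated library, 1.37% of the hmt-deficient library and 8.26% of the untreated library. Their median level was 19.1 FPKM after H2O2, 52.2 FPKM in hmt-deficient cells and 417 FPKM in untreated GS115. Over all 5040 genes the median was 51.1, 68.3 and 69.8 FPKM in the same order. Single members ran from 0.39 to 525 FPKM after H2O2, from 1.92 to 4519 FPKM in hmt-deficient cells and from 13.2 to 19082 FPKM in untreated GS115. By rank, 0 members stood among the 100 most abundant transcripts after H2O2, 1 did so in hmt-deficient cells and 13 did so in untreated GS115. After H2O2, 47 members ranked in the lower part of all genes, below the middle rank, against 34 in hmt-deficient cells and 4 in untreated GS115.

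**Figure D1:**
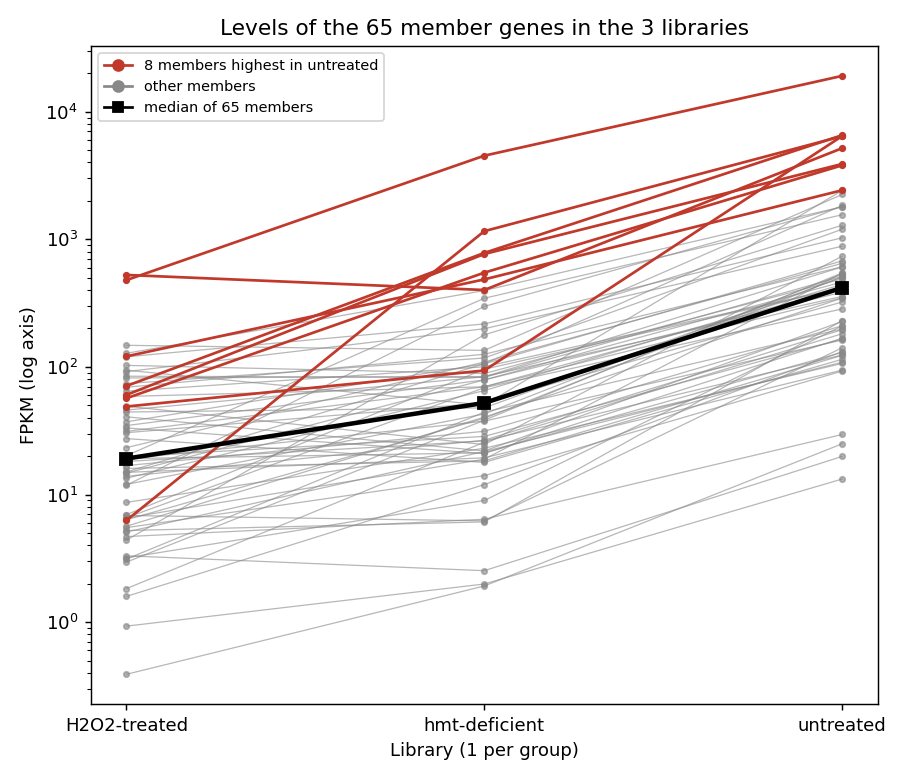
FPKM (log axis) of the 65 members in the H2O2-treated, hmt-deficient and untreated libraries, 1 line per gene, with the 8 members highest in untreated GS115 in red and the median in black. The median stands at 19.1, 52.2 and 417 FPKM, and the red line that starts lowest on the left, at 6.26 FPKM, is that of PAS_chr3_0440.

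PAS_chr4_0627 was the most abundant transcript of all in untreated GS115. It had 479 FPKM after H2O2 and 4519 FPKM in hmt-deficient cells, against 19082 FPKM in untreated GS115. It was thus 39.9-fold lower after H2O2 (exact 95% counting interval 38.6 to 41.2) and 4.22-fold lower in hmt-deficient cells (4.17 to 4.28). It still ranked 11 in the hmt-deficient library and 335 after H2O2, and was the only member among the 100 most abundant transcripts of the hmt-deficient library. Its share of summed FPKM was 0.0447% after H2O2, 0.483% in hmt-deficient cells and 1.87% in untreated GS115.

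A further 3 members had nearly the same level in untreated GS115 and parted widely in the other cultures. PAS_chr2-2_0208 had 70.9 FPKM after H2O2 and 782 FPKM in hmt-deficient cells, against 6544 FPKM untreated. PAS_chr1-4_0481 had 48.9 FPKM after H2O2 and 93.7 FPKM in hmt-deficient cells, against 6445 FPKM untreated. PAS_chr3_0440 had 6.26 FPKM after H2O2 and 1158 FPKM in hmt-deficient cells, against 6428 FPKM untreated. Nearly equal untreated, these genes differed by 11.3-fold after H2O2 and by 12.4-fold in hmt-deficient cells, with a different gene lowest in each: PAS_chr3_0440 after H2O2 and PAS_chr1-4_0481 in hmt-deficient cells.

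The other 4 of the 8 most abundant members were lower by differing degrees as well. PAS_chr4_0786 had 525 FPKM after H2O2 and 400.4 FPKM in hmt-deficient cells, against 5178 FPKM untreated, and was the highest member of all after H2O2. PAS_chr3_0030 had 60.3 FPKM after H2O2 and 767 FPKM in hmt-deficient cells, against 3893 FPKM untreated. PAS_chr4_0972, with 56.7, 548 and 3799 FPKM in the same order of libraries, was close to it in all 3. These last 2 genes differed by less than 1.5-fold in every library. PAS_chr3_1068 had 121 FPKM after H2O2 and 485 FPKM in hmt-deficient cells, against 2423 FPKM untreated.

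Against untreated GS115 the members were lower by a median of 16.2-fold after H2O2, with a range of 4.18-fold to 1027-fold, and by a median of 6.43-fold in hmt-deficient cells, with a range of 4.15-fold to 68.8-fold. After H2O2, 45 members were at least 10-fold and 6 at least 100-fold lower, as were 2.24% and 0.180% of all 4998 genes tested. In hmt-deficient cells 18 were at least 10-fold and 0 at least 100-fold lower, as were 0.480% and 0.0400% of genes tested. A difference of 4-fold downward was met by 6.84% of these genes after H2O2 and by 2.0% in hmt-deficient cells, and since the rule used both contrasts nothing is read from the members' counts. Leaving out the gene kept from the set, the 65 members were 19.1% of the 341 genes that low after H2O2 and 65.7% of the 99 genes that low in hmt-deficient cells. Both ratios share the untreated library, so a high value in it alone lowers both.

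**Figure D2:**
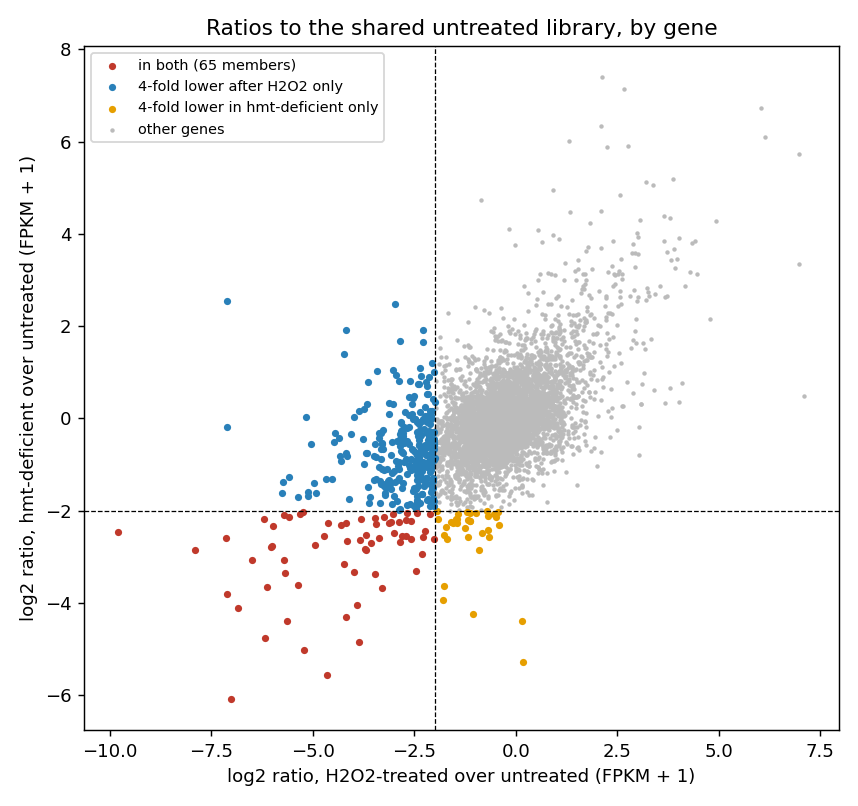
Log2 ratio to untreated (FPKM plus 1) of each gene, H2O2-treated on the horizontal and hmt-deficient on the vertical axis, for genes that reached 10 FPKM, with dashed lines at -2 and the gene left out of the set not drawn. The 65 members fill the lower left by construction, and reach -9.79 on the H2O2 axis and -6.09 on the hmt axis.

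The members lowest relative to untreated, ranked with 1 added to each FPKM value, differed between the contrasts, and the folds given are plain FPKM ratios. After H2O2 the lowest ratio was that of PAS_chr3_0440, 1027-fold lower (903 to 1174). PAS_chr1-1_0108 followed, at 4.39 FPKM after H2O2 and 178 FPKM in hmt-deficient cells, against 1288 FPKM untreated, which is 293-fold lower after H2O2 (213 to 415). PAS_chr4_0828 had 11.8 FPKM after H2O2 and 298 FPKM in hmt-deficient cells, against 1800.2 FPKM untreated. These 3 genes were lower by only 5.55-fold, 7.22-fold and 6.04-fold in hmt-deficient cells. PAS_chr3_0023 had 2.95 FPKM after H2O2 and 38.2 FPKM in hmt-deficient cells, against 546 FPKM untreated. PAS_chr2-2_0403 had 15.0 FPKM after H2O2 and 106 FPKM in hmt-deficient cells, against 1842 FPKM untreated. Both were at least 14-fold lower than untreated in each culture.

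In hmt-deficient cells PAS_chr1-4_0481 was lowest relative to untreated, 68.8-fold lower (62.8 to 75.4), and it was also 132-fold lower after H2O2 (118 to 148). It was the only gene on both lists of the 6 lowest. PAS_chr4_0550 had 94.2 FPKM after H2O2 and 50.2 FPKM in hmt-deficient cells, against 2414 FPKM untreated, 48.1-fold lower in hmt-deficient cells (45.0 to 51.4). PAS_chr4_0588 had 5.22 FPKM after H2O2 and 6.10 FPKM in hmt-deficient cells, against 230.4 FPKM untreated. PAS_chr4_0588 was thus low to a like degree in both cultures, while PAS_chr4_0550 was the lower in hmt-deficient cells. PAS_chr3_0348 had 6.55 FPKM after H2O2 and 18.9 FPKM in hmt-deficient cells, against 542 FPKM untreated. PAS_chr1-1_0418 had 3.19 FPKM after H2O2 and 8.98 FPKM in hmt-deficient cells, against 209.5 FPKM untreated. Of the 6 lowest in hmt-deficient cells, 1 more gene, PAS_chr1-4_0393, is described with its neighbour.

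The H2O2-treated library was then set directly against the hmt-deficient one, a ratio that leaves out the untreated library, although the rule constrains it because both values had to be low; strain and treatment differ together here. Most members were lower after H2O2 than in hmt-deficient cells. The log2 ratio of H2O2-treated to hmt-deficient had a median of -1.07 over the members, with a middle range of -2.35 to -0.25 and extremes of -7.32 and 0.97. Over all 4966 genes with 10 FPKM or more in either of these libraries the median was -0.34. At least 2-fold lower after H2O2 were 33 of 65 members (50.8%), against 23.0% of all genes tested. At least 4-fold lower were 20 members, against 5.54% of all genes tested. At least 2-fold higher were 0 of 65, against 6.50% of all genes tested. Of the members, 58 reached 10 FPKM in either library, and among these 31 were at least 2-fold lower and 0 higher. In either direction, 54 of 65 members (83.1%) stood lower after H2O2 than in hmt-deficient cells, against 65.1% of all genes tested. The rule used both ratios to untreated. Genes 4-fold lower were more frequent after H2O2 (6.84% of 4998) than in hmt-deficient cells (2.0%). These shares therefore only describe the members, and how much of the direction comes from the rule was not tested.

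The counting intervals allow the members to be sorted. For 47 members the interval of the ratio lay wholly below 1, so that the H2O2-treated library was the lower, for 7 wholly above 1, and for 11 it included 1. Of all genes tested, 60.4% lay wholly below 1 and 30.1% wholly above 1 by the same interval. It lay wholly below 0.5 for 31 members, against 20.3% of all genes tested. With the ratio centred on its median over all genes tested, 25 of the 57 genes then in the set were at least 2-fold lower, against 14.0% of all genes tested, and 3 were 2-fold higher, against 12.2%.

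**Figure D3:**
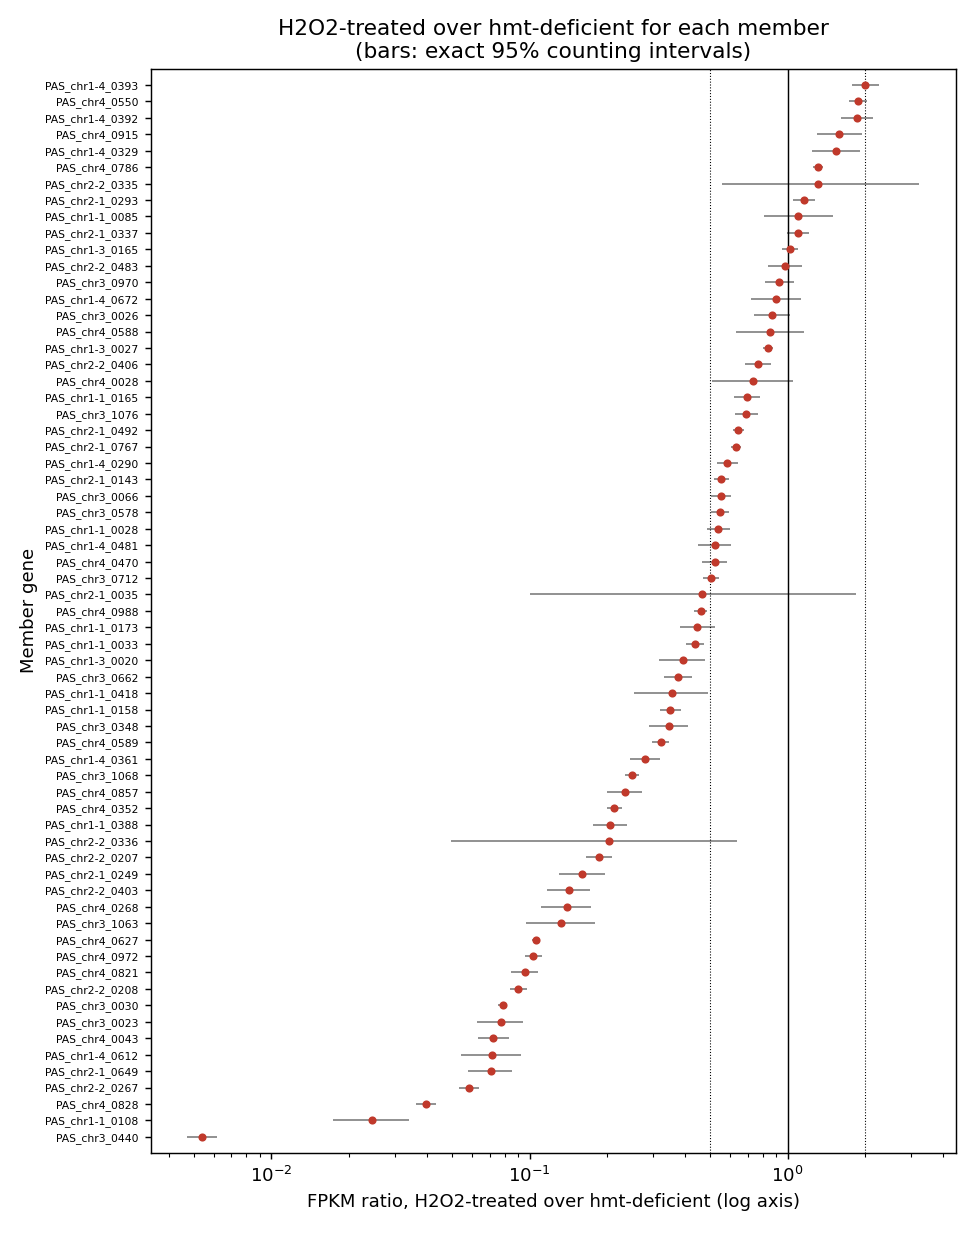
FPKM ratio of the H2O2-treated over the hmt-deficient library (log axis) for each of the 65 members, sorted, with exact 95% counting intervals as bars, a line at 1 and dotted lines at 0.5 and 2. The ratios run from 0.00541 for PAS_chr3_0440 to 2.0 for PAS_chr1-4_0393.

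At the low end of this ratio, 13 members were at least 8-fold lower after H2O2 than in hmt-deficient cells, against 1.81% of all genes tested. Their median level was 6.95 FPKM after H2O2, 298 FPKM in hmt-deficient cells and 1558 FPKM in untreated GS115. PAS_chr3_0440 was 185-fold lower after H2O2 than in hmt-deficient cells (163 to 212), PAS_chr1-1_0108 40.6-fold (29.4 to 57.7) and PAS_chr4_0828 25.2-fold (23.0 to 27.6). With 1 added to each FPKM value these were also the 3 members lowest relative to untreated after H2O2, while on plain FPKM PAS_chr3_0023, 185-fold lower than untreated, stood below PAS_chr4_0828, 152-fold lower. PAS_chr2-2_0267, at 20.1 FPKM after H2O2 and 345 FPKM in hmt-deficient cells, against 1558 FPKM untreated, was 17.1-fold lower after H2O2 than in hmt-deficient cells (15.7 to 18.7). PAS_chr3_0030 was 12.7-fold lower (12.2 to 13.3). These 5 genes were taken as the lowest with 1 added to each FPKM value; on plain FPKM 4 other members were lower than PAS_chr3_0030, by 12.9-fold to 14.2-fold. In hmt-deficient cells all 5 of these genes kept between 13.9% and 22.1% of their untreated level, whereas after H2O2 they kept between 0.0974% and 1.55%.

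At the other end, 11 members were higher after H2O2 than in hmt-deficient cells, with medians of 49.3 FPKM after H2O2, 24.6 FPKM in hmt-deficient cells and 489 FPKM in untreated GS115. The 5 highest ratios belonged to PAS_chr1-4_0393, PAS_chr4_0550, PAS_chr1-4_0392, PAS_chr4_0915 and PAS_chr1-4_0329. The interval lay wholly above 1 for each of these 5. PAS_chr4_0550 was 1.88-fold higher after H2O2 than in hmt-deficient cells (1.73 to 2.03). PAS_chr4_0915 had 33.2 FPKM after H2O2 and 21.0 FPKM in hmt-deficient cells, against 168 FPKM untreated. PAS_chr4_0786, the abundant member above, was 1.31-fold higher after H2O2 than in hmt-deficient cells (1.26 to 1.37), the reverse of the other 7 most abundant members.

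The ratio of H2O2-treated to hmt-deficient had a lower median among members that were abundant in untreated GS115, a description with no test. Among the 17 members with 1000 FPKM or more untreated, the median was 70.9 FPKM after H2O2 and 345 FPKM in hmt-deficient cells, against 2414 FPKM untreated, and the median log2 ratio of H2O2-treated to hmt-deficient was -2.74. Among the 19 members between 100 and 300 FPKM untreated, the median was 13.9 FPKM after H2O2 and 21.9 FPKM in hmt-deficient cells, against 166 FPKM untreated, with a median log2 ratio of -0.85. The 177 other genes with 1000 FPKM or more untreated had a median log2 ratio of H2O2-treated to hmt-deficient of 0.78. Their levels after H2O2 were under no limit, whereas the members' had to be low, so these medians are set side by side without a comparison. Members made up 8.76% of the 194 genes at 1000 FPKM or more, 5.52% of the 417 between 300 and 1000 FPKM, 1.57% of the 1208 between 100 and 300 FPKM and 0.196% of the 3066 between 10 and 100 FPKM. Untreated FPKM enters both ratios of the rule, and with 1 added a low untreated value reaches -2 less readily. These shares are therefore not independent of the rule.

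At low levels the counts limit what can be said. PAS_chr2-1_0035 was the least abundant member in untreated GS115, with 0.93 FPKM after H2O2 and 1.99 FPKM in hmt-deficient cells, against 13.2 FPKM untreated, from 4, 7 and 39 fragments. It was 14.2-fold lower after H2O2 (5.12 to 54.7) and 6.65-fold lower in hmt-deficient cells (2.93 to 17.6). For this gene the interval in hmt-deficient cells reaches under the 4-fold limit. In all, the counting interval lay wholly beyond 4-fold in both contrasts for 59 of the 65 members and wholly beyond 1 for all 65. The rule chose the members by these same ratios, so both counts describe counting error and support nothing more. The 3 members with under 30 fragments in each of the H2O2-treated and hmt-deficient libraries were PAS_chr2-1_0035 and the neighbours PAS_chr2-2_0335 and PAS_chr2-2_0336.

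Membership was decided mostly by the hmt-deficient strain, whose ratio was the nearer to the limit for 54 members, against 11 for H2O2. By arithmetic these are the same 54 members that stood lower after H2O2 than in hmt-deficient cells, so this is no separate result. Just inside stood PAS_chr1-4_0329, with 27.4 FPKM after H2O2, 17.9 FPKM in hmt-deficient cells and 115 FPKM untreated (log2 ratio -2.03 after H2O2). PAS_chr4_0821 had 6.58, 68.7 and 285 FPKM in the same order (-2.04 in hmt-deficient cells), and PAS_chr4_0028 had 4.68, 6.40 and 29.5 FPKM (-2.05 in hmt-deficient cells). These 3 genes had little else in common, since PAS_chr4_0821 was 43.3-fold lower than untreated after H2O2 and the other 2 were at most 6.31-fold lower. Just outside stood PAS_chr4_0104, with 3.48, 7.41 and 32.1 FPKM (-1.98 in hmt-deficient cells), PAS_chr3_0283, with 2.56, 5.63 and 24.8 FPKM (-1.96), and PAS_chr2-1_0351, with 50.6, 72.3 and 284 FPKM (-1.96). Within 0.1 of the limit lay 8 members.

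Coding length, which the rule did not use directly, ran from 192 to 2895 bp with a median of 891 bp, against 1200 bp over the 4998 genes tested. At 600 bp or less were 23 of 65 members (35.4%), against 15.5% of genes tested. The 276 genes that were 4-fold lower after H2O2 but not in hmt-deficient cells had a median length of 1259 bp and 12.7% at 600 bp or less. The 34 genes 4-fold lower in hmt-deficient cells but not after H2O2 had a median length of 566 bp and 50% at 600 bp or less. In length the members thus stood between these sets, and the sets low in hmt-deficient cells were the shorter. Length moved with the ratios over all genes too: among all 775 genes tested at 600 bp or less the median log2 ratio to untreated was -0.31 after H2O2 and -0.42 in hmt-deficient cells, against -0.50 and 0.04 for the 2498 genes over 1200 bp. Untreated level, which enters both ratios of the rule, differed with length as well. Its median was 141 FPKM for the genes tested at 600 bp or less and 56.7 FPKM for those over 1200 bp. The share of short genes among the members is therefore not independent of the rule. The part of length in the choice of members was not tested.

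**Figure D4:**
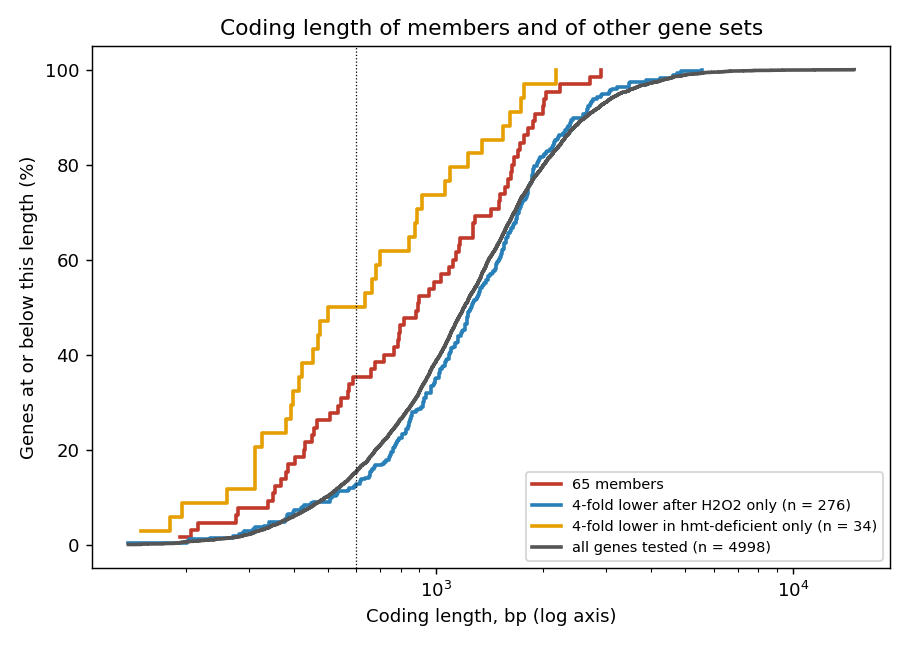
Share of genes (%) at or below each coding length (bp, log axis) for the 65 members, the genes 4-fold lower in 1 culture only and all genes tested, with a dotted line at 600 bp. At that line the members stand at 35.4%, the genes low after H2O2 only at 12.7%, those low in hmt-deficient cells only at 50% and all genes tested at 15.5%.

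Short and long members also differed in level. The 23 members up to 600 bp had medians of 48.9 FPKM after H2O2, 93.7 FPKM in hmt-deficient cells and 610 FPKM untreated. The 23 members over 1200 bp had medians of 13.9, 38.2 and 285 FPKM in the same order. The median log2 ratio of H2O2-treated to hmt-deficient was -0.85 for the short and -1.90 for the long members, against 0.13 and -0.57 for all genes tested of those lengths. Across the 65 members, which are not independent replicates and come from the same libraries, Spearman's rho of this ratio was -0.29 with length and -0.33 with untreated FPKM. The short members differed from all genes of their length by -0.98 and the long members by -1.33 on this scale. The rule constrained the members' ratio and not that of all genes, so these differences are description only. At 8-fold or more lower after H2O2 the median length of members was 1512 bp, and among those higher after H2O2 it was 465 bp.

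The members lay on all 4 chromosomes, with 20 on chromosome 1, 16 on chromosome 2, 13 on chromosome 3 and 16 on chromosome 4. These are 1.30%, 1.20%, 1.09% and 1.65% of the genes on each. Of the members, 2 (3.08%) lay within 20 genes of a chromosome end, against 3.17% of all genes, and 0 lay within 10. The gene that met the thresholds but was left out of the set is not counted here and lay within 10 genes of an end. Within 50 genes of an end lay 9 members (13.8%), against 7.94% of all genes. These 3 windows were chosen with the values known, and no test was made of the shares. Adjacent in gene order to another member were 8 of the 65 (12.3%), in 4 pairs, while 2.41% of the genes outside the set lay next to a member.

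**Figure D5:**
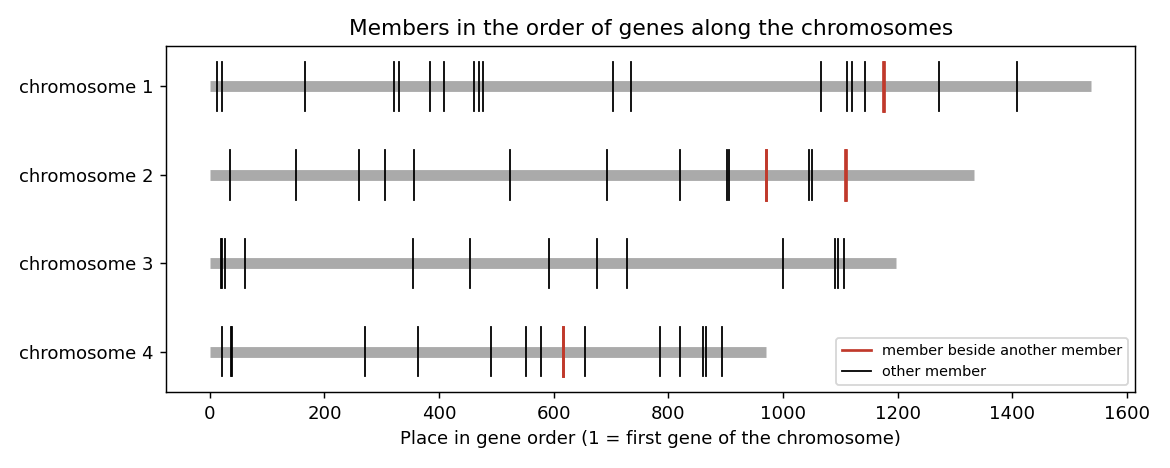
Place of the 65 members in the order of genes along chromosomes 1 to 4, counted from the first gene of each chromosome, with the 8 members that lie beside another member in red. The 4 red pairs lie on chromosomes 1, 2 (with 2 pairs) and 4.

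The pair PAS_chr1-4_0392 and PAS_chr1-4_0393 shared its pattern. PAS_chr1-4_0392 had 40.6 FPKM after H2O2 and 21.9 FPKM in hmt-deficient cells, against 227 FPKM untreated. PAS_chr1-4_0393 had 49.3 FPKM after H2O2 and 24.6 FPKM in hmt-deficient cells, against 737 FPKM untreated. Both stood among the 3 highest members in the ratio of H2O2-treated to hmt-deficient, at 1.85 (1.6 to 2.14) and 2.0 (1.78 to 2.25), and their levels were close in both cultures although they differed by 3.24-fold untreated. On the scale of FPKM plus 1, PAS_chr1-4_0393 had a log2 ratio of 0.97, just short of 2-fold.

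The pair PAS_chr2-2_0207 and PAS_chr2-2_0208 moved the other way. PAS_chr2-2_0207 had 14.7 FPKM after H2O2 and 79.1 FPKM in hmt-deficient cells, against 386 FPKM untreated, and so was 5.37-fold lower after H2O2 than in hmt-deficient cells (4.80 to 6.03). Its neighbour PAS_chr2-2_0208, described above, was 11-fold lower (10.3 to 11.9). PAS_chr2-2_0208 was the more abundant of the pair in every library, by 4.82-fold after H2O2, 9.89-fold in hmt-deficient cells and 17.0-fold untreated.

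The pair PAS_chr4_0588 and PAS_chr4_0589 did not share its pattern. PAS_chr4_0589 had 128 FPKM after H2O2 and 397 FPKM in hmt-deficient cells, against 1798 FPKM untreated, and was 3.11-fold lower after H2O2 than in hmt-deficient cells (2.88 to 3.35). For PAS_chr4_0588 the ratio of H2O2-treated to hmt-deficient was 0.856 (0.631 to 1.16). PAS_chr2-2_0335 had 3.31 FPKM after H2O2 and 2.53 FPKM in hmt-deficient cells, against 19.9 FPKM untreated, and PAS_chr2-2_0336 had 0.39, 1.92 and 24.99 FPKM in that order of libraries. From 16 and 10 fragments for PAS_chr2-2_0335 and 4 and 16 for PAS_chr2-2_0336, a difference between the cultures was not detectable for the first, with a ratio of 1.31 (0.558 to 3.23), while the second was 4.92-fold lower after H2O2 (1.58 to 20.1) on plain FPKM. The size for PAS_chr2-2_0336 depended on the value added to FPKM. Its log2 ratio was -2.04 with 0.1 added, -1.07 with 1 added and -0.36 with 5 added.

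A further 2 pairs of members had 1 gene between them. PAS_chr2-2_0405, between PAS_chr2-2_0403 and PAS_chr2-2_0406, had 86.4 FPKM after H2O2 and 122 FPKM in hmt-deficient cells, against 95.5 FPKM untreated. PAS_chr4_0042, between PAS_chr4_0915 and PAS_chr4_0043, had 87.1 FPKM after H2O2 and 103 FPKM in hmt-deficient cells, against 135 FPKM untreated. Neither gene in between was 2-fold lower in either culture, so these pairs were not part of a continuous low stretch. PAS_chr2-2_0405, PAS_chr2-2_0406, PAS_chr4_0042, PAS_chr4_0043 and, above, PAS_chr2-1_0035 were named after their values were seen.

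Of the flanking genes that are no members, 119 reached 10 FPKM, with a median log2 ratio to untreated of -0.56 after H2O2 and -0.22 in hmt-deficient cells, against -0.38 and -0.07 over all genes tested. At least 2-fold lower were 41 of them after H2O2 (34.5%) and 18 in hmt-deficient cells (15.1%), against 25.8% and 11% of all genes tested. By the same limit of 4-fold as the members, 7 flanking genes (5.88%) were lower after H2O2, against 6.84% of all genes tested, and 0 were in hmt-deficient cells, against 2.0%. The flanking genes had lower medians and a larger share past 2-fold than all genes tested, but no larger share past 4-fold in either culture. All genes tested include the members, whereas a flanking gene 4-fold lower in both cultures would itself be a member. The sets are therefore unlike in make-up, most of all past 4-fold, and these values are description only. Whether low levels extend from members to neighbouring genes was not tested. Whether neighbouring genes share fragments, by overlap or by reading from the opposite strand, was not tested.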

How the data were processed

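RNA-seq was made from 3 cultures, 1 library each. Per the labels' protocols, total RNA was depleted of ribosomal RNA and sequenced as paired-end stranded libraries. The authors deposited FPKM per gene, a unit taken from the file headers. HISAT2, HTSeq, featureCounts, Trimmomatic 0.39 and FastQC 0.12.1 appear in the submitters' processing notes, without their order or use. Genome build and annotation: not given in the sources used here. A second column deposited by the authors holds a normalized score, equal to FPKM for H2O2-treated and 1.14 times FPKM for hmt-deficient, used only as an alternative.

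All 5040 locus tags matched the RefSeq table of ASM2700v1, used for coding length and gene order only. It names no products, so the 24 word-based gene lists matched 0 genes. Fragments were recovered as FPKM times coding length times a fitted total; under 300 fragments (for the H2O2-treated and hmt-deficient libraries also under 400 bp), 94.7% of 75, 96.4% of 83 and 94.5% of 330 genes (H2O2-treated, hmt-deficient, untreated) came within 0.1 of a whole number. Exact 95% intervals cover counting error only. At the median coding length 10 FPKM is 268, 219 and 184 fragments.

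Members and lists were chosen with earlier results of these data known. Genes were named by extremes: the 8 highest untreated, the 6 lowest in each ratio to untreated, the 5 highest and 5 lowest in H2O2-treated over hmt-deficient, all ratios ranked with 1 added to FPKM, adjacent members, and the 3 nearest each side of the limit. The self-check recovered totals and members from simulated counts. Those held counting noise only, changes well past 4-fold, and scored genes abundant enough to pass. It does not bear on membership near the limit or on variation between cultures. Python 3.11.15, numpy 2.4.6, pandas 2.3.3 and scipy 1.17.1 were used. Copies of a gene with near-identical sequence were not checked.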

Additional observations from a re-analysis of the deposited data

How the results depend on the processing

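Without replicates, these results rest on 1 library a group. The set held 65 genes, and 53 to 69 under another pseudocount, minimum or scaling, with 53 under the authors' normalized columns; a 3-fold limit gave 125 genes and an 8-fold limit 19, by construction. The median log2 ratio of H2O2-treated to hmt-deficient, -1.07, became -0.87 with a pseudocount of 5, -1.23 after rescaling to TPM and -0.82 after centring each ratio on its median, which also gave 3 genes at least 2-fold higher instead of 0. Of 52 alternative values for the set as a whole, 46 stayed within 1.5 times (counts, lengths, shares) or 0.1 (log2). Of 216 values for named genes, 101 moved by 0.1 or more on the log2 scale and 0 of those past 2-fold changed sign. The limit of 600 bp was chosen after seeing the data; members held 2.28 times the share of all genes there, 2.85 times at 450 bp and 1.62 times at 900 bp. No paired analysis was possible because each group has 1 library.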
